A study of Mus musculus with 6 samples.

Results

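The core circadian clock genes examined here are 10 genes, Arntl, Clock, Npas2, Cry1, Per1, Per2, Per3, Nr1d1, Nr1d2 and Dbp, of the 20284 named mouse genes matched on the array. They were chosen by name, and every non-control probe whose accession belongs to one of them in RefSeq was taken. This gave 11 probes, a pair for Dbp and 1 for each other gene. All 10 genes had a probe, and 7 had a kept probe, meaning 1 detected well above background by 3 or more arrays, the filter used for the tests. Npas2, Cry1 and Per3 did not pass that filter.

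The livers came from male mice, 3 wild-type (WT) and 3 labelled Gα12 KO, which lack the G protein α subunit encoded by Gna12. Both groups were 8 weeks old, were kept on chow, had fasted overnight and carried a mixed C57BL/6 and 129/Sv background that is 95% C57BL/6. RNA labelled with Cy3 was hybridised to each array. An array is taken as 1 liver, since the labels describe 3 mice per group. The deleted stretch of Gna12 is not given in the sources used here, nor is the clock hour at which the animals were killed. The values are of whole liver, in which fewer cells of a type and less RNA per cell cannot be told apart.

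The clock is a feedback loop of transcription that runs in nearly every cell. BMAL1, the product of Arntl, pairs with CLOCK or NPAS2 and activates genes through E-boxes, among them Per and Cry genes, whose products return to repress it, and Nr1d1 and Nr1d2, whose products (REV-ERBα and REV-ERBβ) repress Arntl and Nfil3 through ROR elements. Dbp, also driven through E-boxes, encodes an activator that acts on D-boxes. In mouse liver Arntl transcripts are therefore high when those of Dbp and Nr1d1 are low, and feeding time is a strong cue for this phase.

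Promoter windows of the members were searched for the elements through which the loop acts. The 4 shown, of Per1, Nr1d1, Cry1 and Per3, are among those that held a match, and that of Per3 held the element that DBP acts on. In the results below WT replicates 1 and 2 differ from WT replicate 3 for Per1, Nr1d1 and Cry1. They also do so for Per3, where of the WT livers only replicate 3 was well above background. The same holds for Clock and Dbp, whose windows at the first start held no match. Nr1d2, whose window held a ROR half-site, was steady. WT replicates 1 and 2 lay both above or both below all other arrays for 75.6% of the 12297 genes with a kept probe, so this division is not particular to the members. The sequences are RefSeq promoters of build GRCm38.p6, the 250 bases before the first listed transcription start, 5′ to 3′ on the strand of the gene. Capitals mark matches on either strand to the E-box CACGTG, the related E-box CACGTT, the ROR half-site AGGTCA, its variant TAGGTNA or the D-box TTANGTAA.
Per1 (chr11:69098699-69098948, plus strand): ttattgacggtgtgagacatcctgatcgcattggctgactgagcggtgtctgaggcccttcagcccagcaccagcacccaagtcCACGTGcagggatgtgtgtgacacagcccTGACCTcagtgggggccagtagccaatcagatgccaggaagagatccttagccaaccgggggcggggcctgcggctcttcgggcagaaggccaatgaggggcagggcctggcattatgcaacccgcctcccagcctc
Nr1d1 (chr11:98775378-98775627, minus strand): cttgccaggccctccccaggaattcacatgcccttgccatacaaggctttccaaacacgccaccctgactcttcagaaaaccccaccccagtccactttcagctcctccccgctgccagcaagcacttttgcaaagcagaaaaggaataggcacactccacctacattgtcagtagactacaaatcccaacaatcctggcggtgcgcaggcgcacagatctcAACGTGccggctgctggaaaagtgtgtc
Cry1 (chr10:85185055-85185304, minus strand): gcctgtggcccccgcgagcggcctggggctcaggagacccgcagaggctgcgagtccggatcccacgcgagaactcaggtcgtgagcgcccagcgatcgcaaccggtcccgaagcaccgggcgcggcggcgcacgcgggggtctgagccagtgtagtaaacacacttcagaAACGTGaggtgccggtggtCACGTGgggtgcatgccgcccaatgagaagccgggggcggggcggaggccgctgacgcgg
Per3 (chr4:151044666-151044915, minus strand): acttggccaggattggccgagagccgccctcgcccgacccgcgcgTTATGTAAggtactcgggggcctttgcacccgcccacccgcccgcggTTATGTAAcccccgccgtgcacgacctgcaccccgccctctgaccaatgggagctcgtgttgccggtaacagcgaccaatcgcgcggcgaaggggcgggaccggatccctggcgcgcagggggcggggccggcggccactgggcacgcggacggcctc

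The Per1 window held an E-box 166 bases before the start and, on the opposite strand, a ROR half-site 137 bases before it. Cry1 had an E-box 60 bases before the start and the related form 79 bases before it, and Nr1d1 had the related form 28 bases before it. Per3 had 2 D-boxes, 205 and 158 bases before the start. Of the 9 members with a promoter in the table, 2 held CACGTG, against 6.02% of the 32851 promoter windows of the same length, 2 held CACGTT (3.85% of all windows), 2 held AGGTCA (14%) and 1 held TTANGTAA (2.06%). The variant TAGGTNA was in no member window and in 7.25% of all. The windows at the first start of Arntl, Clock, Npas2 and Dbp held none of these motifs, although start 3 of Clock had AGGTCA on the opposite strand 119 bases before it, and Per2 was not in the table. Such matches describe the letters of a window and do not show binding.

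A level is the log2 signal of a probe minus the 75th percentile of its array, and a difference is knockout minus WT on that scale. Between 20953 and 28752 probes per array were well above background, and precision is limited by the 3 arrays in each group. WT replicates 1 and 2 stood apart from the other 4 arrays. Over kept probes their correlation with each other was 0.973 and with knockout arrays 0.869 to 0.930. That of WT replicate 3 with knockout arrays was 0.966 to 0.982. The 7 probes of Gapdh, a glycolytic gene, spanned 9.58 and 7.79 log2 units on WT replicates 1 and 2 and 4.01 to 4.87 on the other arrays. For 75.6% of the 12297 genes with a kept probe, WT replicates 1 and 2 lay both above or both below all other arrays. Differences of the members with a kept probe, and a count or median of each list, are therefore given with and without these livers. The hepatocyte genes Alb, Ttr and Apoa1 were well above background on all 6 arrays. The pancreas genes Cpa1, Pnlip and Prss2 were well above background on 1 array, that of WT replicate 1, where their levels were 0.95, 1.52 and 0.43. Cela1, also on the pancreas list, was well above background on all 6 arrays and not raised in WT replicate 1. Its levels were -2.09, -1.31 and -1.48 in WT and -2.42, -1.94 and -2.07 in the knockout. The Gna12 probe was at -3.48, -4.55 and -0.89 in WT and -4.91, -4.62 and -3.47 in the knockout. Only WT replicate 3 was well above background, so this probe hardly tests the labels.

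No clock gene differed between genotypes after adjustment. Limma called 0 of the 7 clock genes at an adjusted p below 0.05, as it called 0 of 12297 genes (0%). At an unadjusted p below 0.05 it had 1 clock gene, Per1, which was higher in the knockout, where 3.98% of all genes were higher and 16.6% lower at that level. The median difference of the 7 genes was -0.05, against -0.49 over all genes. In all 7 the WT and knockout livers overlapped, whereas the groups did not overlap for 25.5% of all genes.

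**Figure D1:**
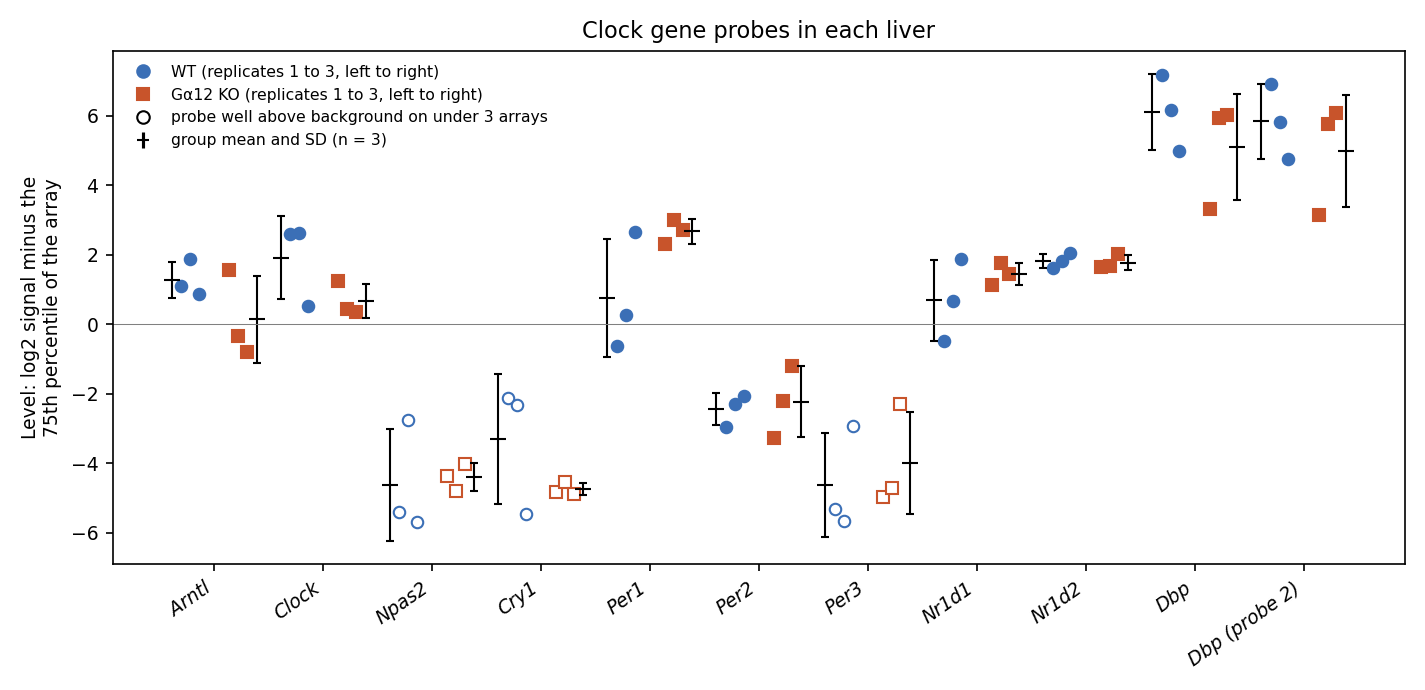
Level of each clock gene probe (log2 signal minus the 75th percentile of the array) in each liver, circles for WT and squares for Gα12 KO, replicates 1 to 3 from left to right, with black bars for the group mean and SD (n = 3). The groups overlap for every probe, and open symbols mark Npas2, Cry1 and Per3, whose probes were well above background on fewer than 3 arrays.

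Arntl, which encodes BMAL1, had levels of 1.10, 1.87 and 0.87 in WT replicates 1 to 3 and of 1.56, -0.33 and -0.80 in knockout replicates 1 to 3. Knockout replicate 1 lay within the WT range and the other knockout livers lay below it. The difference was -1.13 (SE 0.63, limma adjusted p = 0.275), from group means of 1.28 ± 0.52 for WT and 0.14 ± 1.25 for the knockout (SD, n = 3). It was -1.84 (SE 0.49, limma adjusted p = 0.449) without knockout replicate 1, -0.66 (SE 0.65, adjusted p = 0.551) without knockout replicate 3 and -0.72 (SE 1.03, adjusted p = 0.844) without WT replicates 1 and 2.

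Clock, the partner of BMAL1, followed the division among WT livers instead. It was at 2.59, 2.62 and 0.53 in WT and at 1.23, 0.43 and 0.34 in the knockout, so that WT replicates 1 and 2 were above all other livers and WT replicate 3 lay among the knockout livers. The difference was -1.25 (SE 0.61, limma adjusted p = 0.248). It was -1.94 (SE 0.32, adjusted p = 0.00705) without WT replicate 3 and 0.13 (SE 0.44, adjusted p = 0.938) without WT replicates 1 and 2. Npas2, the other partner of BMAL1, was well above background only in WT replicate 2, at -2.77, and ranged from -5.70 to -4.02 elsewhere, so its probe gives no comparison.

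Among the repressors, Per1 was the member with the lowest unadjusted p. Its levels were -0.64, 0.26 and 2.66 in WT and 2.30, 3.00 and 2.72 in the knockout. WT replicates 1 and 2 were below all other livers, and WT replicate 3 lay within the knockout range. The difference of 1.91 (SE 0.78) had an unadjusted p of 0.0417 and a limma adjusted p of 0.235. Without WT replicate 3 it was 2.86 (SE 0.36, adjusted p = 0.00485), and without WT replicates 1 and 2 it was 0.01 (SE 0.34, adjusted p = 0.995). With the spread of Gapdh probes added to the model it was 0.46 (SE 0.31, adjusted p = 0.641).

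Cry1, the cryptochrome repressor gene, was well above background only in WT replicates 1 and 2, at -2.12 and -2.33. WT replicate 3 was at -5.47 and the knockout livers at -4.83, -4.54 and -4.88, none of them well above background. No fold is given, because the WT mean of -3.31 lay below the lowest signals well above background on the knockout arrays. The fit over all probes gave -1.45 (SE 0.85, limma adjusted p = 0.265), which sets WT replicates 1 and 2 against background values and is no measured difference.

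Per2, a second period gene, was at -2.95, -2.29 and -2.06 in WT and at -3.27, -2.21 and -1.21 in the knockout, where replicate 1 was not well above background. The knockout livers spanned the whole WT range. The difference was 0.20 (SE 0.55, limma adjusted p = 0.810) and -0.17 (SE 0.86) without WT replicates 1 and 2. Per3, the third period gene, was well above background in WT replicate 3, at -2.93, and knockout replicate 3, at -2.31, and lay between -5.68 and -4.71 in the other livers. Its difference over all probes was 0.64 (SE 0.93, adjusted p = 0.646).

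The REV-ERB genes behaved unlike each other. Nr1d1 was at -0.47, 0.67 and 1.87 in WT and at 1.14, 1.76 and 1.44 in the knockout. As for Per1, WT replicates 1 and 2 lay below the other livers, and WT replicate 3 was here the highest of all. The difference was 0.76 (SE 0.58, limma adjusted p = 0.380), was 1.35 (SE 0.40, adjusted p = 0.0337) without WT replicate 3 and was -0.42 (SE 0.31, adjusted p = 0.729) without WT replicates 1 and 2. Nr1d2 was the steadiest member, with 1.63, 1.81 and 2.04 in WT and 1.64, 1.67 and 2.02 in the knockout, a span of 0.41 over all 6 livers and a difference of -0.05 (SE 0.31, adjusted p = 0.917), or -0.27 (SE 0.25) without WT replicates 1 and 2.

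Dbp, the D-box activator gene, was measured by 2 probes. The brighter was at 7.18, 6.16 and 5.0 in WT and at 3.33, 5.93 and 6.02 in the knockout, and the other at 6.93, 5.82 and 4.77 and at 3.15, 5.76 and 6.07. On both probes knockout replicate 1 was the lowest liver and the other knockout livers lay within the WT range. The differences were -1.02 (SE 0.83, limma adjusted p = 0.408) and -0.85 (SE 0.86, adjusted p = 0.495). The difference of the brighter probe was -0.14 (SE 0.66) without knockout replicate 1 and 0.10 (SE 1.26) without WT replicates 1 and 2.

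**Figure D2:**
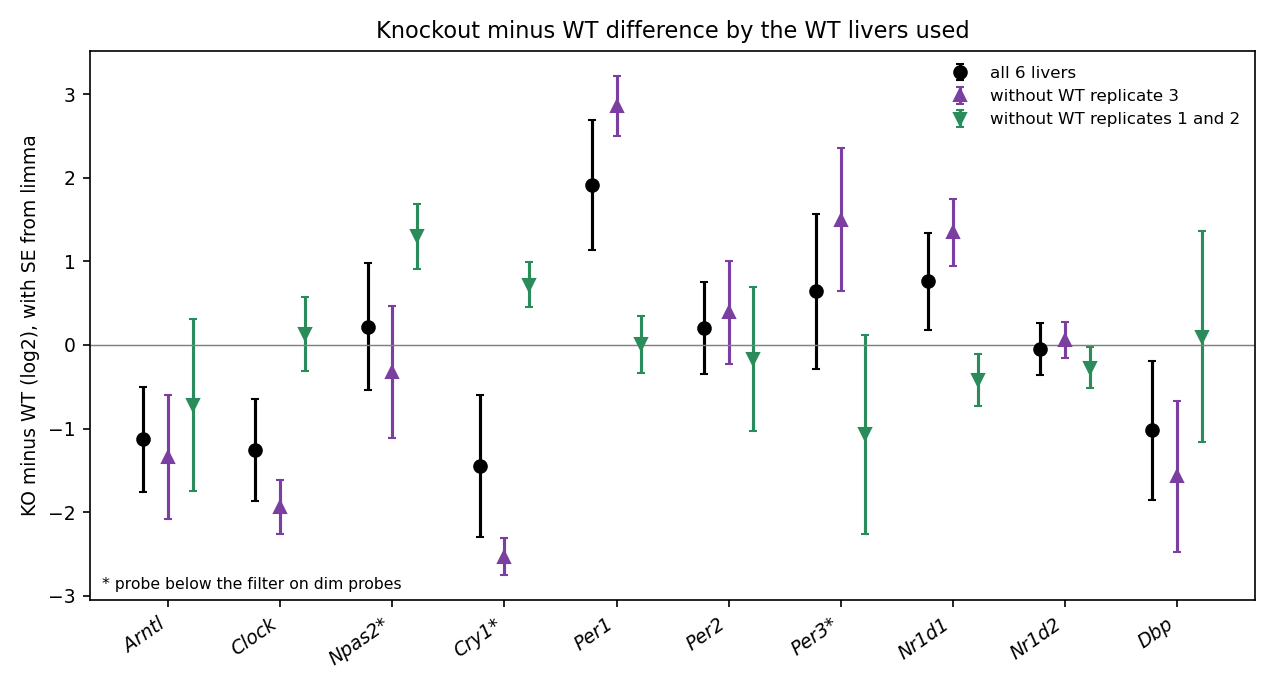
Knockout minus WT difference of each clock gene (log2, vertical axis) with its SE from limma, fitted on all 6 livers (circles), without WT replicate 3 (upward triangles) and without WT replicates 1 and 2 (downward triangles), asterisks marking probes below the filter. Per1 moves from 2.86 to 0.01 and Clock from -1.94 to 0.13 between these sets of WT livers.

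The differences of Clock, Per1 and Nr1d1 thus moved with the WT livers used. Without WT replicate 3 limma called 3 of the 7 clock genes, Clock, Per1 and Nr1d1, where it called 62.2% of all genes, and 68.2% of genes had an unadjusted p below 0.05. With WT replicates 1 and 2 left out together it called 0 of 7 clock genes and 0% of all genes, with 0 clock genes and 6.78% of genes at an unadjusted p below 0.05. WT replicates 1 and 2 lay outside the range of the other 4 arrays for 4 of the 7 genes, above it for Clock and Dbp and below it for Per1 and Nr1d1, against 75.6% of all genes. For Dbp this held on the brighter probe only. On its other probe WT replicate 2, at 5.82, lay below knockout replicate 3, at 6.07. WT replicate 3 lay within the range of the knockout livers for 5 of 7, all but Nr1d1 and Nr1d2, against 40.6% of all genes. With the replicate number as a block, 2 of 7 (Clock and Per1) and 17.8% of all genes had an unadjusted p below 0.05.

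Across the 6 arrays, which share the same division of WT livers, Per1 correlated with Nr1d1 at r = 0.95 and with Clock at -0.96. Arntl was related to Per2 with r = -0.72 and to Dbp with -0.25. Dbp correlated with Per1 at -0.56 and with Nr1d1 at -0.51, although all of these are driven through E-boxes, and with Clock at 0.39. These are descriptions over 6 livers.

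A difference between individual livers showed within the knockout group. Knockout replicate 1 had the highest Arntl level of its group and the lowest Dbp and Per2 levels. The Dbp level there minus that in knockout replicates 2 and 3 was -2.60 and -2.69, and for Arntl these distances were 1.89 and 2.36. Per1, Nr1d1 and Nr1d2 were also lowest in knockout replicate 1 within the group, but by less. Their distances were -0.70 and -0.42, -0.62 and -0.30, and -0.03 and -0.38. For Per1 and Nr1d1, knockout replicate 1 lay above the mean of the 6 livers, by 0.58 and 0.07. With each gene centred on its mean over the 6 livers, Dbp minus Arntl was -3.12 in knockout replicate 1, 1.36 in replicate 2 and 1.93 in replicate 3. In WT replicates 1 to 3 it was 1.19, -0.60 and -0.76. This ratio within an array was not planned and does not depend on the scaling between arrays. It was -3.06 in knockout replicate 1 after quantile normalization and -2.97 after normexp. The planned measure was the centred median of Per1, Per2, Nr1d1, Nr1d2 and Dbp minus that of Arntl and Clock, the members with a kept probe. It was -1.46, -1.24 and 0.57 in WT replicates 1 to 3 and -0.56, 1.27 and 1.65 in knockout replicates 1 to 3. Knockout replicate 1 was the lowest of its group by this measure, and WT replicates 1 and 2 were lower still. Each liver gives 1 time point, so a phase cannot be estimated from it, and no test was made of single livers.

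Arntl, Dbp and Per2 were among the genes that varied most between the knockout livers. Their SDs there of 1.25, 1.53 and 1.03 exceeded those of 98.2%, 98.8% and 97.2% of genes, and the median over all genes was 0.19. The value of Per2 rests in part on replicate 1, which was not well above background, and was 0.48 after normexp. These 3 of the 7 clock genes lay in the highest 10% of genes by this SD, which began at 0.55. The spread of Arntl and Per2 between WT livers, 0.52 and 0.46, was below the median of all genes there (0.65), whereas that of Dbp, 1.09, exceeded 87.3% of genes in WT as well. Per1, Clock and Nr1d1 had the opposite order, with SDs of 1.71, 1.20 and 1.17 in WT and of 0.35, 0.49 and 0.31 in the knockout. That was also the order of the medians over all genes, 0.65 in WT and 0.19 in the knockout. Without knockout replicate 1 the SDs of Arntl and Dbp between the other knockout livers were 0.33 and 0.07, and 1 of the 7 genes, Per2, stayed in the highest 10%.

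**Figure D3:**
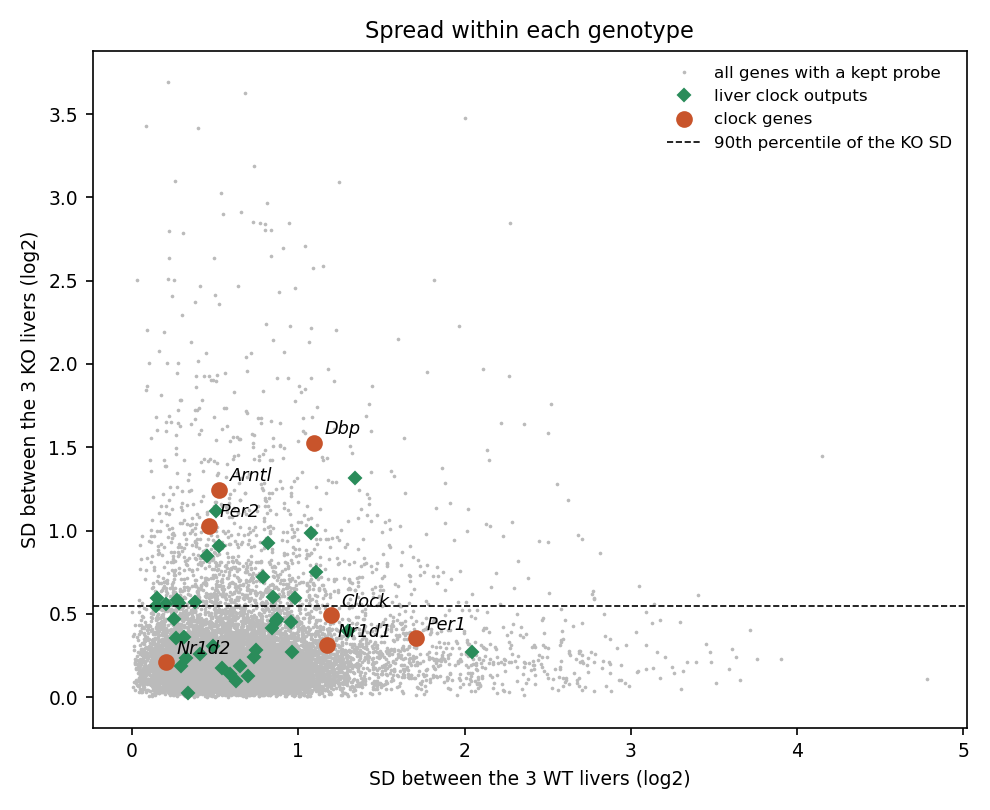
SD between the 3 knockout livers (vertical axis, log2) against SD between the 3 WT livers (horizontal axis, log2) for each gene with a kept probe (grey), the clock genes (circles, named) and the liver clock outputs (diamonds). Dbp, Arntl and Per2 lie above the dashed line at 0.55, the start of the highest 10% in the knockout. Per1, Clock and Nr1d1 vary more in WT, as the median over all genes does.

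The knockout arrays as wholes were close to each other, with correlations of 0.971 between replicates 1 and 3, 0.973 between replicates 2 and 3 and 0.978 between replicates 1 and 2. Hepatocyte marker sums in knockout replicates 1 to 3 were 12.23, 12.34 and 11.95 log2 units. Marker sums of other tissue differed among the same livers. Those of skeletal muscle were -1.52, 0.30 and 1.84. Acta1 and Tnnt3 were well above background in knockout replicates 2 and 3, Myh4 in replicate 3 and Ckm in none. The sums of adipocyte markers were -1.29, -1.80 and 1.49. Of these markers Cfd was well above background in all 3 knockout livers, Adipoq in replicate 3 and Plin1 in none. The part of such tissue in the clock gene levels was not tested.

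Other genes of the loop were examined through a list of clock partners. Of 38 listed, 33 had a kept probe, 0 passed the adjusted limma test, and 8 had an unadjusted p below 0.05, 3 of them higher, near the 20.6% of all genes at that level. The median difference was -0.64, against -0.49 over all genes. Without WT replicates 1 and 2 it was -0.03, against -0.03 over all genes in that fit. The lowest p-values belonged to Ep300, an acetyltransferase gene (2.19, SE 0.66), Ciart, a repressor of the BMAL1 complex (2.23, SE 0.82), and Prkaa2, an AMP-activated kinase subunit (1.57, SE 0.65), on the higher side. On the lower side were Btrc, a ubiquitin ligase gene (-1.49, SE 0.48), the deacetylase gene Sirt1 (-1.60, SE 0.54) and Csnk1a1, a casein kinase (-1.20, SE 0.44), each with a limma adjusted p of 0.235, as for the 3 others. Ep300 and Ciart were well above background in 1 WT liver and Btrc in 1 knockout liver, so their differences are set partly against background values. For all 6 of these genes WT replicates 1 and 2 lay at 1 end of the 6 livers. Without these livers their differences were 0.65, 0.88, 0.26, -0.51, -0.38 and -0.30 in the order named.

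Among the direct partners of the loop, Cry2, the second cryptochrome, was at 4.79, 4.68 and 2.82 in WT and 2.71, 3.17 and 3.33 in the knockout, so it split WT livers as Clock did. Rora, which encodes an activator that competes with REV-ERB proteins, was at 1.65, 1.93 and 1.94 in WT and at 1.46, 1.51 and 1.63 in the knockout, with no overlap between the groups and a difference of -0.31 (SE 0.30, limma adjusted p = 0.474). Bhlhe40, an E-box repressor gene, differed by -0.53 (SE 0.33), without overlap between the groups, and neither of the 2 probes of Bhlhe41 was kept. Hlf and Tef, relatives of Dbp, differed by -0.15 (SE 0.36) and -0.80 (SE 0.56).

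Of the 33 partners, 5 (15.2%) lay in the highest 10% by SD between knockout livers, and replicate 1 was the liver farthest from the middle one in 3 of them. Nfil3, a D-box repressor gene that REV-ERB proteins restrain, was at 3.17, 1.80 and 1.73 in knockout replicates 1 to 3, highest in replicate 1 like Arntl. Ciart was at -4.08, -2.22 and -1.26, lowest in replicate 1, where it was not well above background. Hlf was at 1.35, 2.28 and 2.12, whereas for Tef, at 4.22, 4.82 and 5.53, replicate 3 was farthest from the middle liver. Usp2, a ubiquitin protease gene driven by the clock, was named after its values were seen, and was at -1.31, 1.35 and 1.87, with an SD exceeding that of 99.2% of genes.

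**Figure D4:**
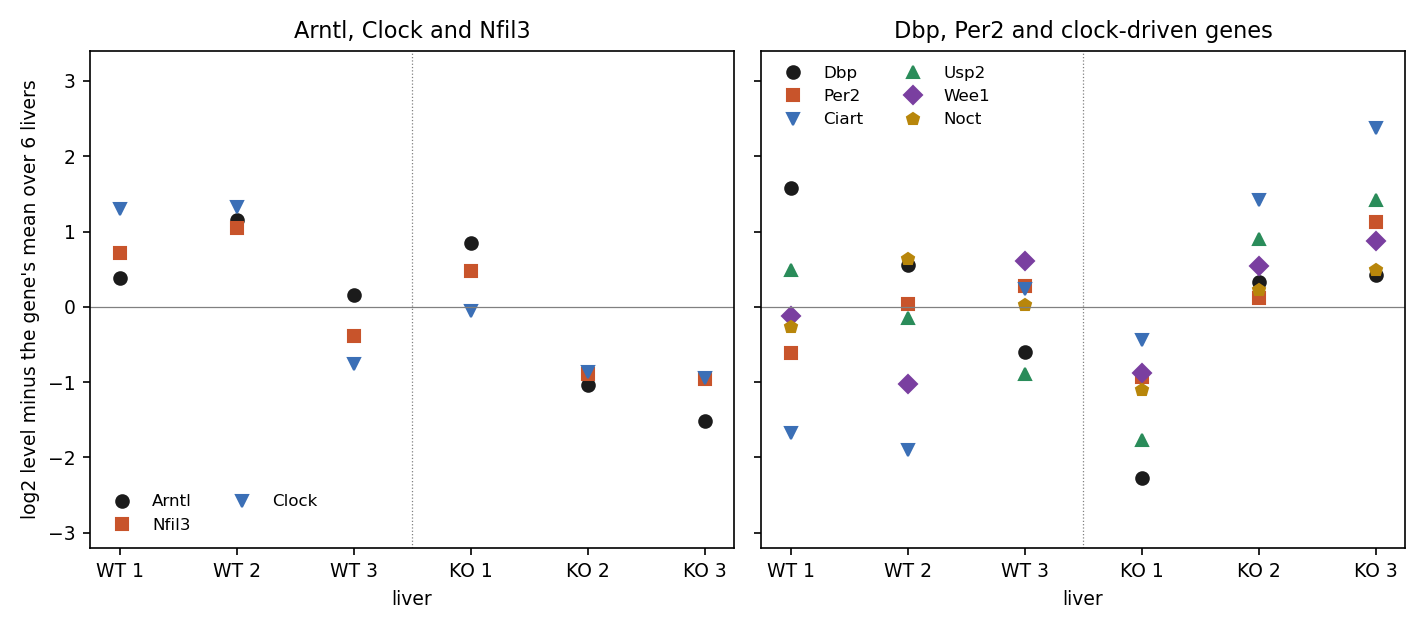
Level of each gene in each liver minus its mean over the 6 livers (log2, vertical axis; livers on the horizontal axis), with Arntl, Clock and Nfil3 on the left and Dbp, Per2 and 4 clock-driven genes on the right, of which Usp2, Wee1 and Noct were picked after their values were seen. In knockout replicate 1 Arntl and Nfil3 are high and the genes on the right are low, and in knockout replicates 2 and 3 the order is the other way. Per1, Nr1d1 and Nr1d2, which differed less between knockout livers, are not shown. Nor are liver clock outputs that were highest in knockout replicate 1, such as Alas1 and Elovl5.

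Clock outputs in liver were examined through a second list, of which 38 of 42 names had a kept probe. Of these, 9 had an unadjusted p below 0.05, 3 of them higher in the knockout, near the 20.6% of all genes at that level. The adjusted limma test passed 0, and the median difference was -0.58, against -0.49 over all genes. Without WT replicates 1 and 2 the median difference was -0.13, against -0.03 over all genes in that fit. Lpin1, a phosphatidate phosphatase gene, differed by 2.76 (SE 0.91), Slc45a3, a sugar transporter gene, by 1.31 (SE 0.43) and Alas1, the first enzyme of haem synthesis, by 0.96 (SE 0.40). Rgs16, a regulator of G protein signalling with a strong fasting and daily rhythm in liver, differed by -1.48 (SE 0.52). Each had a limma adjusted p between 0.235 and 0.237. WT replicates 1 and 2 lay at 1 end of the 6 livers for all of them but Alas1. Without these livers the differences of Lpin1, Slc45a3, Alas1 and Rgs16 were 1.20, 0.46, 1.02 and -0.88.

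Of these 38 genes, 15 (39.5%) lay in the highest 10% by SD between knockout livers. In 12 of the 15, replicate 1 was the knockout liver farthest from the middle one. It was so for all 3 clock genes there, for all 4 genes there of the systemic cue list below and for 442 (35.9%) of the 1230 genes in that range. Fkbp5 is in both the output list and the cue list. These counts were made after the values were seen and take no account of direction. Among the 12, replicate 1 was lowest for Rgs16, Fkbp5, Wee1, Cyp7a1, Noct and Ppara. It was highest for Alas1, Lonrf3, Elovl5, Tubb2a, Cyp2b10 and Pnpla3. Wee1, a cell cycle kinase gene driven by E-boxes, was at -2.44, -1.02 and -0.69, Noct, a rhythmic phosphatase gene, at 2.52, 3.84 and 4.11 and Ppara, the fatty acid receptor gene, at 4.69, 5.67 and 5.77. These 3 were named after their values were seen. Rgs16, at 1.97, 3.00 and 3.78 in the knockout, was lowest in replicate 1, and Alas1, at 8.12, 7.03 and 7.27, was highest there. Without knockout replicate 1, 4 of the 38 lay in the highest 10%.

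Cues that act on Per genes from outside, such as glucocorticoids, temperature and serum signals, made a list of 22 genes, of which 21 were measured. Here 6 had an unadjusted p below 0.05, of which 5 were lower, where 16.6% of all genes were lower at that level. The adjusted limma test passed 0, and the median difference was -0.61, against -0.49 over all genes. Without WT replicates 1 and 2, 5 had an unadjusted p below 0.05, 4 of them lower, against 6.78% of all genes. The early genes Nr4a1 (-3.26, SE 0.43, limma adjusted p = 0.116) and Egr1 (-3.49, SE 0.73, adjusted p = 0.230) were lower in every knockout liver than in any WT liver. Without WT replicates 1 and 2 their differences were -2.85 (SE 0.47) and -1.92 (SE 0.68). Fos was well above background in all 3 WT livers and in no knockout liver, and no difference is given. The heat shock gene Hspa1a, well above background in 1 WT liver, differed by 1.69 (SE 0.52, adjusted p = 0.235), and by 0.72 without WT replicates 1 and 2. Of the 21, 4 (19%) lay in the highest 10% by SD between knockout livers, namely Egr1, Crem, Fkbp5 and Hspa1a.

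Among 3357 genes whose levels spanned at least 2 log2 units, those most like Arntl over the 6 arrays were Nnmt, which encodes nicotinamide N-methyltransferase (r = 0.973), Serpina7, the gene of thyroxine-binding globulin (0.966), and Usp6nl (0.958). Nnmt was at 4.14, 4.68 and 4.21 in WT and at 4.79, 2.78 and 2.83 in the knockout. Genes picked by likeness to a member repeat its pattern by choice and are no separate evidence for it. Those most like Dbp were 4933411K16Rik (0.963), the proprotein convertase gene Pcsk4 (0.955) and Wipf3 (0.952). Those most like Nr1d1 were Cln6 (0.995), the phospholipase gene Pla2g6 (0.991) and the homeobox gene Prox1 (0.990), all with WT replicate 1 lowest as in Nr1d1 itself. Likeness above r = 0.95 was shared by 217 genes for Nr1d1, by 7 for Arntl and by 4 for Dbp.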

How the data were processed

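The 6 arrays (1 colour, Cy3, from 0.5 µg of RNA each, per the labels) were quantified by Agilent Feature Extraction 10.7.3.1, per the submitters' processing notes. Spot intensity is deposited on a linear scale, with background subtracted and low values raised to a floor, beside the median intensity of each spot and of its background. Log2 values in the deposited matrix equalled the log2 processed intensity plus a constant per array, whose choice is unknown. WT and knockout arrays filled separate rows of 1 slide, so row and genotype cannot be told apart.

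From the log2 processed intensity the 75th percentile of non-control spots was subtracted, spots marked as outliers were left out and spots of a probe were averaged, which gave 55324 of 55681 probes a value. Probes with a spot well above background on at least 3 arrays were kept (23132). Accessions were matched to RefSeq GRCm38.p6 names (26762 probes). The brightest kept probe by mean level represents a gene, and members below the filter by a fit over all 55324 probes. Differences were fitted using lmFit and eBayes of limma 3.58.1 (R 4.3.3) and tested on both sides, Benjamini-Hochberg adjusted over all kept probes at 0.05, and the script was tested on simulated data. The software's error was 10% of the signal for bright members and up to 101% for dim ones.

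The members and lists were chosen with earlier results of these data known. From each list up to 3 genes per direction with the lowest unadjusted p below 0.05 are named, with Cry2, Rora, Nfil3, Tef, Hlf, Bhlhe40, Bhlhe41 and Ciart. Some genes that this rule names are not reported here. Alternatives were other scalings, filters, background corrections and variance models, the deposited matrix, a replicate block, other probes and livers left out. The list counts and medians without WT replicates 1 and 2 were added after seeing the data. The labels describe 3 mice per group, so an array is taken as 1 mouse.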

Additional observations from a re-analysis of the deposited data

How the results depend on the processing

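For every clock gene the adjusted p stayed above 0.05 except without WT replicate 3, where those of Clock, Per1, Nr1d1 and, below the filter, Cry1 were 0.00705, 0.00485, 0.0337 and 0.0132. Leaving out each liver in turn, 0 to 13123 probes, 0 to 3 clock genes and, at an unadjusted p below 0.05, 0 to 3 clock genes were called. At that unadjusted level 0 clock genes remained after quantile normalization, without WT replicates 1 and 2, and with the Gapdh covariate, which was chosen after seeing the data, and 1 probe passed the adjusted test after normexp and 2 with the filter on all 6 arrays. Of the counts by spread between knockout livers, chosen after seeing the data, 1 to 4 clock genes and 4 to 20 outputs were in the highest 10% with a knockout liver left out, the lowest without replicate 1. The cause of these changes was not tested. Signs turned as follows. With median scaling Nr1d2 was 0.09, and after quantile normalization Nr1d2 was 0.19 and Npas2 -0.23. Leaving out 1 liver turned Npas2 (range -0.32 to 1.15, below 0 without WT replicates 1 or 3, at -0.16 and -0.32), Per2 (-0.06 without WT replicate 1, -0.31 without knockout replicate 3), Per3 (range -0.20 to 1.5, below 0 without knockout replicate 3) and Nr1d2 (0.06 without WT replicate 3, 0.02 and 0 without knockout replicates 1 and 2). Without WT replicates 1 and 2, which leaves 1 WT liver assumed to vary like the knockout, Clock was 0.13, Cry1 0.72 (all background values), Per2 -0.17, Per3 -1.07, Nr1d1 -0.42 and Dbp 0.10. With the Gapdh covariate Cry1 was 0.11, Per2 -0.22, Per3 -0.63 and Nr1d1 -0.22. Arntl and Per1 kept their sign in all 18 settings. With the replicate block, limma called 0 probes, and 2 clock genes, Clock and Per1, had an unadjusted p below 0.05. The titles do not say what a replicate number shares. Deviations of same-numbered arrays correlated at -0.13, 0.01 and -0.04, which with 3 arrays per group cannot decide whether the numbers pair the livers.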
